A study of Homo sapiens with 6 samples.

Results

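The 53 genes described here are targets of E2F transcription factors, genes of their control, and genes of mitosis. They were chosen by name, with no measured value in the rule, and were read from bead chip probes whose annotation gives a single gene symbol, current or earlier (CDC2 for CDK1). The 53 symbols had 79 probes, of which 74 were above background on at least 3 of the 6 arrays, and every one of the 53 genes kept at least 1 probe. The whole series gave 13323 such probes and 9905 genes, and the kept probe with the highest mean signal stood for its gene. By role there were 12 G1/S control genes and 17 replication genes, together 29 genes of G1/S, and 12 G2/M cyclin and kinase genes and 12 spindle, kinetochore and mitotic exit genes, together 24 genes of G2/M.

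The samples were SNU638 cells, a human gastric cancer line, as 3 arrays of mock cells and 3 arrays of cells stably overexpressing LAP2β, an inner nuclear membrane protein encoded by TMPO. The LAP2β line was made by co-transfection of pCMV-SPORT6-LAP2β with pIRES-Neo and selection with G418, and the mock cells were established alongside it with the empty vector. Both were grown in the same medium, and the paper gives a clone number in its account of the overexpressing SNU638 and PANC1 cells without stating which line it belongs to or that it was the one arrayed. The labels do not say either whether samples of a group were separate cultures, so every p-value reflects the spread among these samples, which could be technical, and 3 arrays a group limit how precisely a level is known. All 7 epithelial markers examined were measured, and of 10 markers of fibroblasts, leukocytes and endothelium only CD68 had a kept probe. The epithelial markers CDH1 and KRT8 had log2 fold changes of 0.74 and 0.42 (adjusted p = 0.0579 and 0.126 from limma) and passed only with the replicate block, the other 5 lay between -0.25 (CLDN7) and 0.21 (KRT19) and passed neither fit, and the part of these markers in the results was not tested. The kept TMPO probe, which was not matched to the β transcript, read 9.79 ± 0.21 (SD, n = 3) on the log2 scale in mock and 9.76 ± 0.12 (SD, n = 3) in LAP2β cells, so it gives no check of the overexpression. Array medians before normalization were 189.52 to 199.89, and 44.1% to 46.6% of the probes were above background on an array.

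E2F factors bind DNA with a DP partner and switch on genes for S phase entry, and the pocket proteins RB1 and RBL1 (p107) bind E2F and hold these genes down until cyclin-dependent kinases release them. Genes of mitosis peak later in the cycle, and many are kept low in G0 and G1 by the DREAM complex through a CHR element near the start site and are driven in G2 by NF-Y at CCAAT boxes with MYBL2 and FOXM1. LAP2β has been linked to both parts of this program: with the germ cell-less protein it represses E2F activity in reporter assays, and its binding to HA95 has been tied to the stability of CDC6 in G1.

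The regulatory sequence typical of these classes was read from RefSeq promoters of GRCh38.p14, from 250 bases before to 50 after each start. The E2F letters searched were TTTCCCGC, TTTCGCGC, TTTGCCGC and TTTGGCGC, the CHR letters were TTTGAA and TTCGAA, and the CCAAT box was CCAAT, all on both strands. A CHR match can overlap an inverted CCAAT box, as it does in MKI67. Promoters were found for 41 of the 53 genes, 55 promoters in all. Of 35116 promoters in the table, 3.32% held an E2F match, 16.4% a CHR match, 34.6% a CCAAT box and 6.38% both a CHR match and a CCAAT box. Of the 34 promoters of 23 G1/S genes, 15 (44.1%) held an E2F match, 2 (5.88%) a CHR match and 22 (64.7%) a CCAAT box. Of the 21 promoters of 18 G2/M genes, 3 (14.3%) held an E2F match, 13 (61.9%) a CHR match, 19 (90.5%) a CCAAT box and 12 (57.1%) both of the latter. A match of letters describes the sequence and does not show binding. The search took only these exact letters, so a promoter without a match may still hold a site of other letters. No promoter entry was matched for TPX2, E2F8, BIRC5, TTK, MCM4, FOXM1, CDK2, MCM5, CCND1, UBE2C, AURKA and CCNE2.

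The next sequences show the contrast between the classes, each the 150 bases up to the start site, written 5′ to 3′ on the gene's strand with the matched letters in capitals. E2F1 (chr20:33686386-33686535, minus strand), the activator that heads the program, and RBL1 (chr20:37095998-37096147, minus strand), the pocket protein described further on, hold paired E2F matches close to the start, and E2F1 also holds CCAAT boxes farther upstream.
E2F1: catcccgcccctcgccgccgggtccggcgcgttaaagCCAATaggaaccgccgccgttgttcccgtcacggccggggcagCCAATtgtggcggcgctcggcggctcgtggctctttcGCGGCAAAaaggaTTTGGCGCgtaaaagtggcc
RBL1: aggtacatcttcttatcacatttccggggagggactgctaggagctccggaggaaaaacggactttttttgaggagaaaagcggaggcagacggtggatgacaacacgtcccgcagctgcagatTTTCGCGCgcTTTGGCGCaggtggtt
CDC20 (chr1:43358831-43358980, plus strand), which activates the anaphase-promoting complex, CCNB2 (chr15:59104996-59105145, plus strand), a mitotic cyclin, and MKI67 (chr10:128126424-128126573, minus strand), which encodes the Ki-67 protein that coats mitotic chromosomes, hold CCAAT boxes and CHR letters and no E2F match in the stretch.
CDC20: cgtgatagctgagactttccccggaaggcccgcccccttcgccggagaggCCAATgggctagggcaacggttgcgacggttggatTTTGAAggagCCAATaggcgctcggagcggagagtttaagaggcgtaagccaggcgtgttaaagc
CCNB2: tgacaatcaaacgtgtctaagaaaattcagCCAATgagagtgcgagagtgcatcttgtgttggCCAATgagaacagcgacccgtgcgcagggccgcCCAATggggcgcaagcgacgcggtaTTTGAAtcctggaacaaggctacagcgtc
MKI67: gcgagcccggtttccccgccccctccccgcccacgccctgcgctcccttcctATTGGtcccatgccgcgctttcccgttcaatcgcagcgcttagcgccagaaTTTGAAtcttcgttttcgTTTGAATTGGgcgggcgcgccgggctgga

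The comparison of LAP2β with mock cells asks which transcripts differ between the LAP2β line and the mock cells. Vector and selected cells go together in these samples. An effect of the protein thus cannot be told apart from other differences between the selected cells. None of the 53 genes rose and none fell at an adjusted p under 0.05 from limma with Benjamini-Hochberg adjustment over all probes, against 1.79% of the 9905 genes and 1.65% of the 13323 probes that passed in either direction. At an unadjusted p under 0.05 from limma, 4 of the 53 were lower in LAP2β cells (CCNE1, RBL1, MCM4 and MKI67) and none was higher, against 13.8% of all genes in both directions and 7.09% lower. Because same-numbered arrays of the 2 groups deviated together, the fit was repeated with the replicate number as a block. With this block 3 of the 53 fell (CCNE1, MCM4 and MKI67) and none rose, against 6.43% of all genes in both directions and 2.88% lower.

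The differences were small and mostly on the same side. The log2 fold change was below 0 in 42 of the 53 genes (79.2%), against 52.1% of all genes, and its median was -0.074 against -0.0068 over all genes. It ran from -0.33 for CCNE1 to 0.13 for MCM5. Scaling the arrays by their medians, or leaving them unnormalized, put the median of all genes at -0.128 and -0.143, so values near 0 changed sign with the scaling. The 95% interval from limma lay within 0.5 log2 units of 0, a 1.41-fold difference, for 46 of the 53 genes (86.8%, against 88.4% of all genes) and within 1 log2 unit for all 53. The widest bounds were 1.46-fold lower, for MCM4, and 1.45-fold higher, for RRM2, and no interval reached beyond these. These bounds are of signals without background correction, which can understate the change of a dim gene. The 29 G1/S genes had a median of -0.085, with 22 below 0, and the 24 G2/M genes one of -0.061, with 20 below 0, so the medians differed by -0.024. This difference was not stable in sign: it was 0.014 with median scaling or no normalization, and with each array left out it ran from -0.035 without LAP2β array 1 to 0.018 without mock array 3. The G1/S median itself ran from -0.159 without mock array 1 to -0.018 without mock array 3, and the G2/M median from -0.129 without mock array 1 to -0.0061 without LAP2β array 1. These counts and medians moved with single arrays. With each array left out in turn, 34 to 49 of the 53 genes were below 0, and the median was -0.15 without mock array 1, -0.043 without mock array 2, -0.024 without mock array 3, -0.017 without LAP2β array 1, -0.063 without LAP2β array 2 and -0.11 without LAP2β array 3. RNA of whole cultures cannot tell a smaller share of cells in a phase from less of a transcript per cell.

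**Figure D1:**
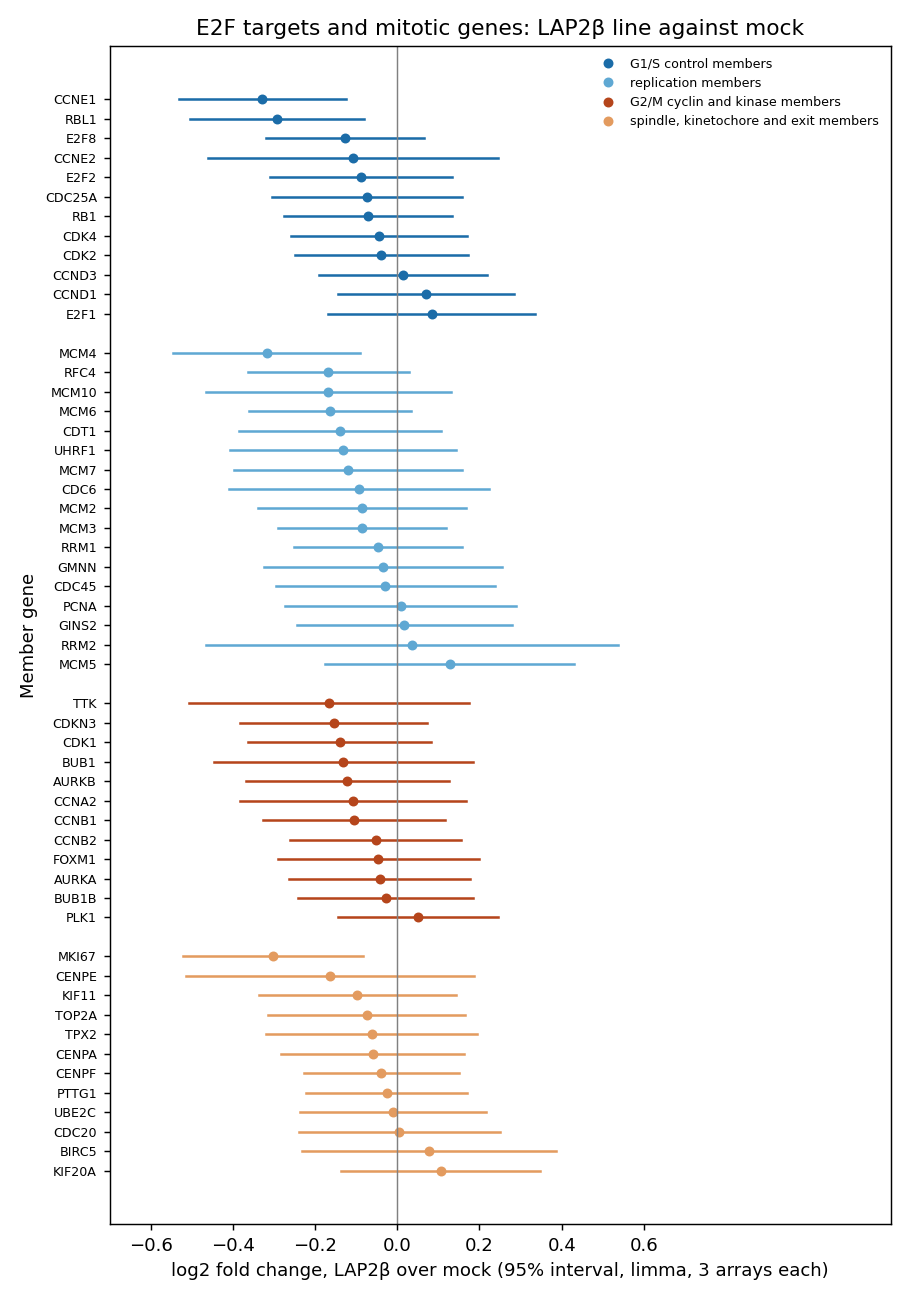
Log2 fold change of LAP2β over mock cells (x axis) for each of the 53 genes (rows, in 4 colours by role), with points for the fitted value and lines for the 95% interval from limma, 3 arrays in each group. Points lie below 0 for 42 genes and run from -0.33 (CCNE1) to 0.13 (MCM5), and only the intervals of CCNE1, RBL1, MCM4 and MKI67 leave out 0.

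Among the 12 genes of G1/S control, CCNE1, RBL1 and E2F8 had the smallest p, and 9 of the 12 were below 0 with a median log2 fold change of -0.072. CCNE1 encodes cyclin E1, which activates CDK2 to start S phase. Its log2 signal was 11.16, 11.25 and 11.36 on mock arrays 1 to 3 and 10.85, 10.99 and 10.94 on LAP2β arrays 1 to 3. All 3 LAP2β values were below all 3 mock values. The log2 fold change was -0.33 (SE 0.092), or 1.26-fold lower, with an adjusted p of 0.129 from limma, and of 0.0333 with the replicate block. Of the other 3 kept CCNE1 probes, 2 gave log2 fold changes of -0.40 and -0.26, with adjusted p of 0.0806 and 0.194 from limma and 0.0165 and 0.0814 with the block. The dimmest one gave -0.027 (adjusted p = 0.936 from limma). Its mean log2 signal was 8.15, against 10.57 to 11.09 for the other probes. The probes of this gene thus did not all behave alike, and the part of the low signal in this was not tested.

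RBL1 encodes p107, the pocket protein that is itself an E2F target and joins the DREAM complex. It read 8.17, 8.37 and 8.43 in mock and 7.98, 8.01 and 8.09 in LAP2β cells. The groups did not overlap, although mock array 1 lay closer to the LAP2β arrays than to the other mock arrays. The log2 fold change was -0.29 (SE 0.096), or 1.22-fold lower, with an adjusted p of 0.191 from limma and 0.0536 with the block. E2F8, an atypical E2F that represses E2F targets, had log2 signals of 7.985, 8.086 and 8.088 in mock and 7.872, 7.902 and 8.003 in LAP2β cells. Its highest LAP2β value passed its lowest mock value, and the log2 fold change of -0.13 had an adjusted p of 0.578 from limma.

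The best known regulators of the group gave no call in either direction. E2F1 had log2 signals of 8.46, 8.50 and 8.64 in mock and 8.77, 8.38 and 8.70 in LAP2β cells, with the highest and the lowest value both in the LAP2β group (log2 fold change 0.084, adjusted p = 0.809 from limma). RB1, the retinoblastoma pocket protein, gave 8.30, 8.31 and 8.15 in mock and 8.08, 8.24 and 8.24 in LAP2β cells, which overlapped (log2 fold change -0.070, adjusted p = 0.802 from limma). CCND1 encodes cyclin D1, which with CDK4 starts the phosphorylation of RB1. It gave 13.22, 13.34 and 13.49 in mock and 13.44, 13.47 and 13.36 in LAP2β cells, with the LAP2β arrays inside the mock range (log2 fold change 0.070, adjusted p = 0.809 from limma). The signs of E2F1 and CCND1, and that of PCNA among the replication genes, turned when arrays were scaled to their medians or not normalized. The rest of these genes, E2F2, the cyclin genes CCND3 and CCNE2, the kinase genes CDK2 and CDK4 and the phosphatase gene CDC25A, lay between -0.11 (CCNE2) and 0.014 (CCND3).

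Of the 17 replication genes, 13 were below 0, with a median log2 fold change of -0.086. MCM4 is a subunit of the MCM2 to MCM7 ring, the replicative helicase loaded on origins in G1. Its log2 signal was 13.01, 13.29 and 13.27 in mock and 12.76, 12.94 and 12.92 in LAP2β cells. The groups stood apart by less than the spread within mock. The log2 fold change was -0.32 (SE 0.10), or 1.25-fold lower, with an adjusted p of 0.190 from limma and 0.0356 with the block. Its second probe differed by -0.31 log2 units (adjusted p = 0.254 from limma, 0.0780 with the block).

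The ring's other subunits did not pass either fit. MCM6 gave 12.93, 13.01 and 12.93 in mock and 12.69, 12.80 and 12.88 in LAP2β cells, apart but by a narrow gap (log2 fold change -0.16, adjusted p = 0.470 from limma). MCM2, MCM3 and MCM7 had log2 fold changes of -0.086, -0.085 and -0.12, and MCM5 stood on the other side at 0.13 (adjusted p = 0.743 from limma). Dimmer second probes of MCM3 and MCM7 gave -0.18 and -0.30 (adjusted p = 0.464 and 0.348 from limma). RFC4 is a subunit of the clamp loader that places PCNA on DNA. It gave 11.82, 11.82 and 11.93 in mock and 11.63, 11.66 and 11.78 in LAP2β cells, also without overlap (log2 fold change -0.17, adjusted p = 0.454 from limma). Its second probe gave -0.21.

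CDC6 loads the MCM ring together with CDT1. It read 7.87, 8.28 and 8.50 in mock and 8.02, 8.24 and 8.11 in LAP2β cells. The mock arrays surrounded the LAP2β arrays, and the log2 fold change of -0.093 (SE 0.14) had an adjusted p of 0.836 from limma. PCNA, the sliding clamp of replication, gave 12.37, 12.88 and 12.82 in mock and 12.73, 12.67 and 12.70 in LAP2β cells at its brightest probe, with mock array 1 alone far below (log2 fold change 0.0086, adjusted p = 0.988 from limma). Its second, dimmer probe read 8.37, 8.90 and 8.92 in mock and 8.34, 8.28 and 8.28 in LAP2β cells, which is -0.43 log2 units (adjusted p = 0.183 from limma, 0.0446 with the block). Of the 18 genes with more than 1 kept probe, PCNA and UBE2C were the 2 whose probes differed in sign. The remaining genes of this group, which license or fire origins (CDT1, its inhibitor GMNN, CDC45, GINS2 and MCM10), make deoxyribonucleotides (RRM1 and RRM2) or carry methylation through replication (UHRF1), lay between -0.17 (MCM10) and 0.037 (RRM2).

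**Figure D2:**
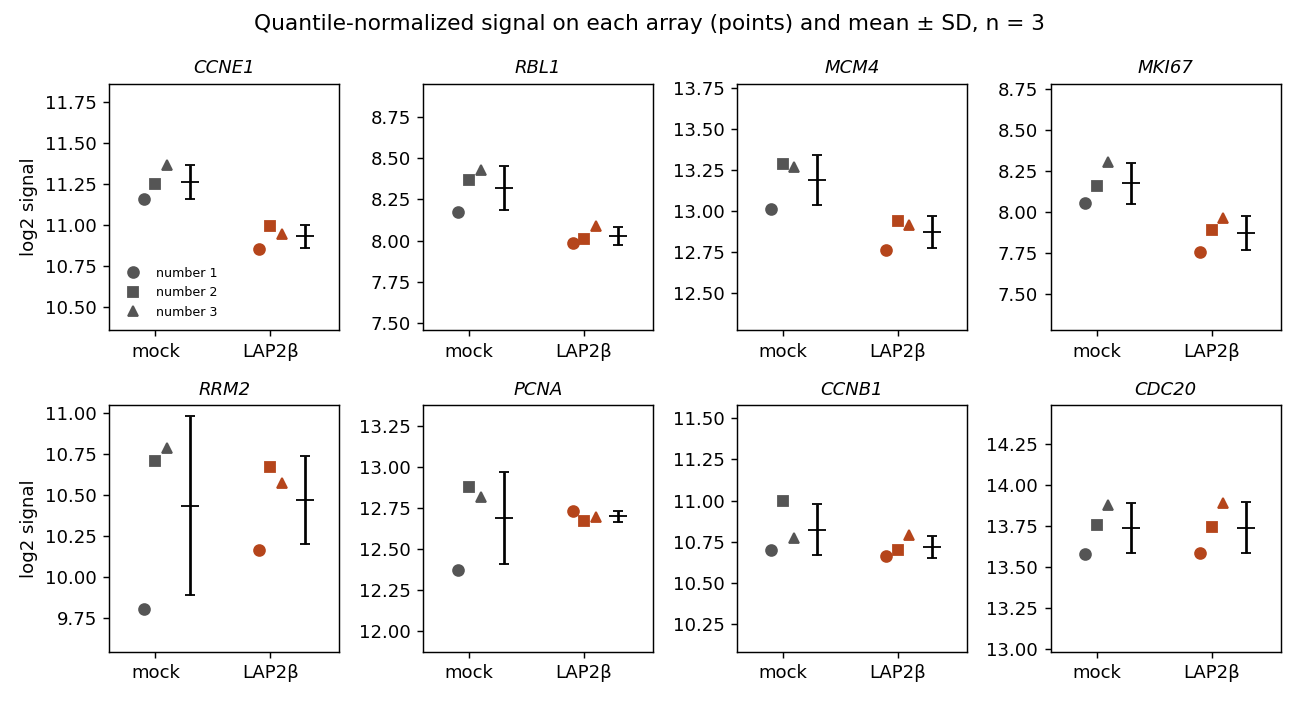
Log2 signal after quantile normalization (y axis) of 8 genes on the 3 mock and 3 LAP2β arrays (x axis), with the shape of a point giving its replicate number and the bar the mean ± SD (n = 3), and the same span on every y axis. The groups are apart in CCNE1, RBL1, MCM4 and MKI67 and overlap in RRM2, PCNA, CCNB1 and CDC20. All of these genes but PCNA have their lowest value of each group at number 1.

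The G2/M cyclins and kinases gave no call, with 11 of 12 below 0 and a median log2 fold change of -0.11. CDK1 is the kinase that drives mitosis. It read 12.39, 12.59 and 12.55 in mock and 12.22, 12.47 and 12.42 in LAP2β cells. Each LAP2β array was below the mock array of its number, while the groups overlapped (log2 fold change -0.14, adjusted p = 0.598 from limma). A second probe gave -0.28 (adjusted p = 0.361 from limma). CCNB1 encodes cyclin B1, the partner of CDK1, and read 10.699, 10.996 and 10.772 in mock and 10.664, 10.698 and 10.790 in LAP2β cells. Only mock array 2 stood out (log2 fold change -0.11, adjusted p = 0.706 from limma).

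AURKB, the kinase of the chromosomal passenger complex, read 11.97, 12.19 and 12.32 in mock and 12.04, 11.92 and 12.17 in LAP2β cells. These ranges overlapped (log2 fold change -0.12, adjusted p = 0.696 from limma). CDKN3, a phosphatase that acts on cyclin-dependent kinases, read 11.51, 11.55 and 11.52 in mock and 11.21, 11.35 and 11.56 in LAP2β cells. LAP2β array 3 was above every mock array and the other LAP2β arrays below (log2 fold change -0.16, adjusted p = 0.561 from limma). The other genes lay between -0.17 (TTK, a checkpoint kinase) and 0.050 (PLK1, a kinase of mitotic entry and spindle assembly). They were CCNA2 and CCNB2, which encode cyclins, AURKA, a spindle pole kinase, BUB1 and BUB1B of the spindle checkpoint, and FOXM1, the activator of G2/M genes, at -0.046.

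Of the 12 genes of the spindle, kinetochore and mitotic exit, 9 were below 0, with a median log2 fold change of -0.049. MKI67 had the lowest of these values. Its log2 signal was 8.06, 8.16 and 8.31 in mock and 7.76, 7.89 and 7.97 in LAP2β cells. MKI67 was above background on all 3 mock arrays, with mock array 3 judged by signal rank, and on 2 of the 3 LAP2β arrays. The groups did not overlap, and each LAP2β array was below its mock partner. The log2 fold change was -0.30 (SE 0.099), or 1.23-fold lower, with an adjusted p of 0.191 from limma and 0.0421 with the block.

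No other gene of this group passed either fit. CENPE, a kinetochore motor, read 9.72, 10.09 and 10.29 in mock and 9.58, 9.95 and 10.08 in LAP2β cells. The differences within a group exceeded that between groups (log2 fold change -0.16, adjusted p = 0.710 from limma). KIF20A, a motor of cytokinesis, read 11.08, 11.23 and 11.42 in mock and 11.21, 11.45 and 11.39 in LAP2β cells. It was among the few genes above 0 (log2 fold change 0.11, adjusted p = 0.732 from limma), but its sign turned with median scaling or no normalization. CDC20 read 13.58, 13.75 and 13.88 in mock and 13.58, 13.75 and 13.89 in LAP2β cells, nearly the same value at each number (log2 fold change 0.0044). The rest, CENPA and CENPF of the centromere and kinetochore, KIF11 and TPX2 of the spindle, TOP2A, which untangles sister chromatids, BIRC5 of the passenger complex, UBE2C of the anaphase-promoting pathway and PTTG1, the securin, lay between -0.097 (KIF11) and 0.076 (BIRC5).

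Counted by overlap alone, all LAP2β arrays were below all mock arrays in 6 of the 53 genes (CCNE1, RBL1, MCM4, MCM6, RFC4 and MKI67) and above them in none, where 10.5% of all genes had the groups apart with LAP2β lower and 9.27% with LAP2β higher. Each LAP2β array lay below the mock array of its number in 14 of the 53 genes, against 22.7% of all genes, and above it in none, against 20.9% of all genes. The count of 6 changed most with mock array 1. LAP2β was below all mock arrays in 26 genes without that array, against 18.8% of all genes, in 14 without LAP2β array 3, against 15.7% of all genes, and in 6 or 7 with any other array left out. Across genes with a promoter entry, the median log2 fold change was -0.087 in 16 genes with an E2F match and -0.070 in 25 without, -0.067 in 14 genes with CHR letters and -0.086 in 27 without, and -0.074 in 31 genes with a CCAAT box and -0.11 in 10 without. Genes counted as without a match may hold sites of other letters, so these medians do not contrast regulated with unregulated promoters. RBL1, with its paired E2F letters, and MKI67, with its CHR letters, were lower by nearly the same amount, while E2F1 and CDC20 with like stretches stood at 0.084 and 0.0044.

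The arrays were also compared by replicate number, a question asked after the data had been seen. In 25 of the 53 genes both arrays numbered 1, the mock and the LAP2β one, were lower than the other 4 arrays, against 13.3% of all genes, and in none were both higher. The mean of the number 1 arrays was below that of the others in 51 of the 53 genes, with E2F1 and PTTG1 as the exceptions, and the median difference was -0.146 log2 units, against -0.0070 over all genes. The G1/S genes gave 13 of these 25 and the G2/M genes 12, with 10 among the 17 replication genes and 8 among the 12 spindle, kinetochore and exit genes. The spread between the number means was larger than the difference between groups in 46 of the 53 genes (86.8%), against 70.3% of all genes. A range over the numbers, with fewer arrays each than a group, tends to exceed a group difference even without any effect. Only the share over all genes gives this count a scale.

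Of the 53 genes, 3 differed between numbers at an adjusted p under 0.05 from limma's F test, against 2.97% of all genes, and all 3 were lowest at number 1. RRM2, the regulated subunit of ribonucleotide reductase, read 9.80, 10.71 and 10.78 in mock and 10.16, 10.67 and 10.57 in LAP2β cells. The number 1 arrays were 0.70 log2 units below the others, while the difference between groups was 0.037. The F test, which asks for any difference among the 3 numbers, gave an adjusted p of 0.0130 from limma. CENPE was 0.45 log2 units below at number 1 (adjusted p = 0.0214 from limma's F test). CCNE2, which encodes the second cyclin E, read 9.43, 9.97 and 10.04 in mock and 9.46, 9.83 and 9.82 in LAP2β cells. It was 0.47 log2 units below at number 1 (adjusted p = 0.0314 from limma's F test). The sources do not say what a number shares, and what the number 1 arrays had in common was not tested.

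**Figure D3:**
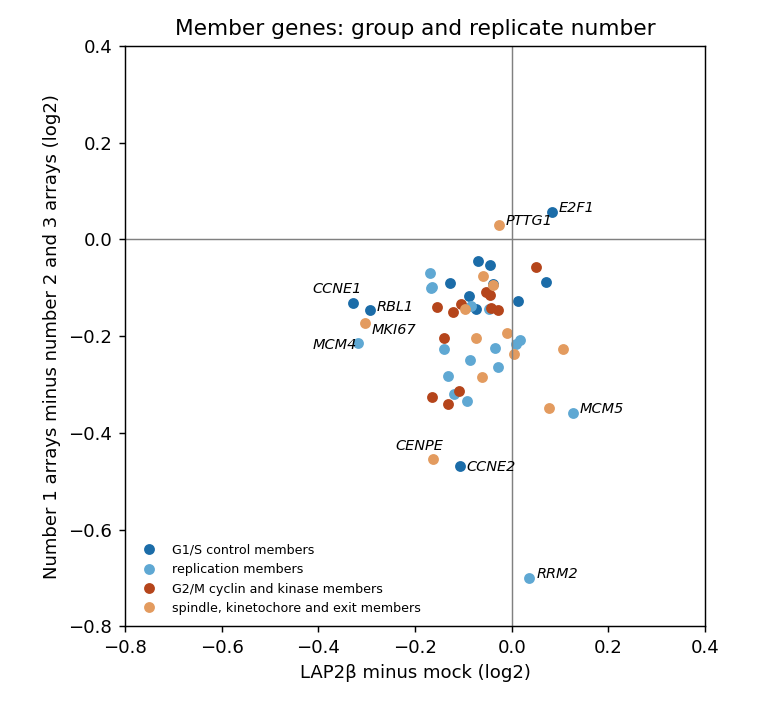
Each point is 1 of the 53 genes, in 4 colours by role, with the difference between groups (LAP2β minus mock, log2) on the x axis and the difference of the number 1 arrays from the number 2 and 3 arrays (log2) on the y axis, both on the same scale. All points but E2F1 and PTTG1 lie below 0 on the y axis, down to -0.70 for RRM2, while the x axis spans only -0.33 to 0.13.

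By role, the level on each array was summarised. As the median deviation of its genes from their own means, the replication group stood at -0.18, 0.11 and 0.21 on mock arrays 1 to 3 and at -0.14, -0.025 and 0.013 on LAP2β arrays 1 to 3. The spindle, kinetochore and exit group stood at -0.083, 0.037 and 0.13 on the mock arrays and at -0.16, 0.0046 and 0.10 on the LAP2β arrays. Both were thus lowest on the number 1 array of each group, and in neither did the groups stand apart. The 12 G1/S control genes stood at -0.12, 0.096 and 0.10 on the mock arrays and at -0.052, -0.083 and 0.010 on the LAP2β arrays, and the 12 G2/M cyclin and kinase genes at -0.072, 0.11 and 0.072 and at -0.15, -0.039 and 0.086. Among the LAP2β arrays, the G1/S control genes were thus lowest on array 2 and the other role groups on array 1. Over all genes the same median stayed between -0.0079 and 0.0075.

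**Figure D4:**
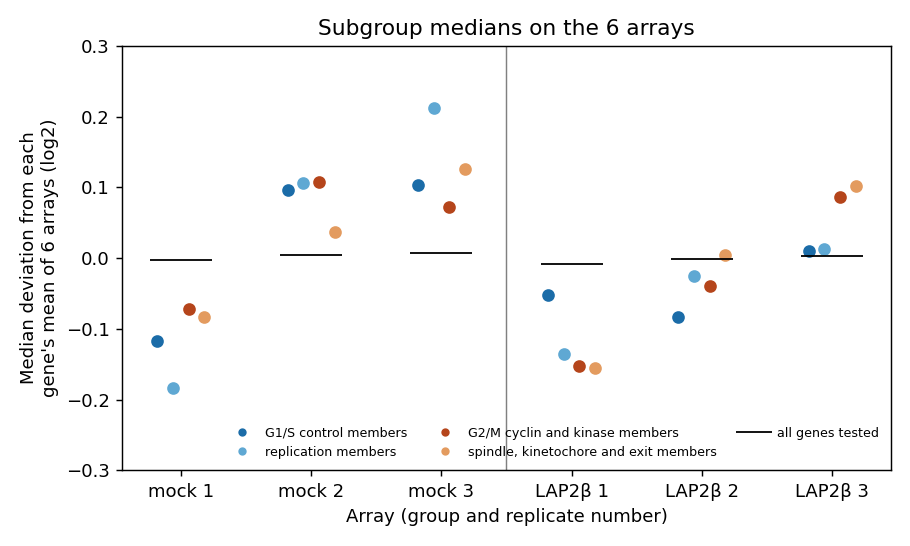
Median deviation of each role group's genes from their own mean over the 6 arrays (y axis, log2) on each array (x axis, group and replicate number), with black bars for all 9905 genes. On mock 1 and LAP2β 1 every role group lies below 0, from -0.05 to -0.18, and mock and LAP2β values overlap in all 4.

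Other genes of the cell cycle were counted in the same way. Of 134 further genes in 7 lists by role, 125 were measured. None rose and none fell at an adjusted p under 0.05 from limma, against 1.79% of all genes in both directions. Their median log2 fold change was -0.072, with 89 below 0 (69 to 99 with an array left out). With the replicate block 1 rose, CDKN1B, and 1 fell, ECT2, against 6.43% of all genes in both directions and 2.88% lower. CDKN1B encodes p27, the inhibitor of cyclin E and CDK2. It read 10.30, 9.84 and 9.95 in mock and 10.59, 10.28 and 10.43 in LAP2β cells. Each LAP2β array was above its mock partner, but mock array 1 was slightly above LAP2β array 2 (log2 fold change 0.41, adjusted p = 0.178 from limma, 0.0111 with the block). A dimmer second probe gave 0.11 (adjusted p = 0.682 from limma). ECT2, an exchange factor of cytokinesis, read 10.65, 10.79 and 10.66 in mock and 10.14, 10.45 and 10.49 in LAP2β cells, with no overlap (log2 fold change -0.34, adjusted p = 0.184 from limma, 0.0401 with the block).

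By list, 10 of 13 further E2F, pocket protein and DREAM genes were below 0, with E2F5, a repressor E2F, at -0.28 (adjusted p = 0.191 from limma) and LIN9, of the MuvB core of DREAM, at -0.20. Of 13 inhibitors and other G1 cyclins and kinases, 9 were below 0, with CDKN2D, an inhibitor of CDK4 and CDK6, at -0.30 (adjusted p = 0.241 from limma). Origin licensing and firing gave 14 of 16 below 0, including GINS4 at -0.20 and WDHD1 at -0.18, and fork and nucleotide genes 17 of 24, including POLD3, a subunit of polymerase delta, at -0.24 and RFC5 of the clamp loader at -0.27. In kinetochore, checkpoint and passenger genes 11 of 18 were below 0, with NDC80 at -0.25 and CENPH at -0.30, both of the kinetochore. Spindle, cytokinesis and condensin genes gave 15 of 22, with the condensin gene SMC2 at -0.28 (adjusted p = 0.174 from limma), and genes of the G2/M switch and the anaphase-promoting complex 13 of 19, with CDC25C and ANAPC1 both at -0.20. The CDC25C value is that of its brightest probe, and its other kept probes lay above 0, at 0.065 and 0.023. The listed genes without a kept probe are not analysed here.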

How the data were processed

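Total RNA of 3 mock and 3 LAP2β samples was run on Illumina HT-12 arrays. The authors processed the scans with BeadStudio and quantile normalized them. They deposited linear intensity values before and after normalization, although their methods name a log2 step, with detection p-values. The names of 2 detection columns matched no sample, so these were left out. For mock replicate 3, which then had none, signals were ranked and given the median detection value that signals of the same rank had on the other 5 arrays.

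The intensities before normalization were quantile normalized and log2 transformed with limma 3.58.1 in R 4.3.3. Probes detected (p-value under 0.01) on 3 or more of the 6 arrays entered a fit of LAP2β against mock (lmFit, eBayes), with Benjamini-Hochberg adjustment over all 13323. The fit was tested on simulated data. Of 29377 probes, 27988 had 1 gene symbol, and 27819 were matched by gene ID to the RefSeq table of GRCh38.p14. Promoter sequences are from RefSeq. Values on all arrays are given for genes past the threshold in either fit, the 3 with the smallest p in each role group and 8 textbook representatives, and RRM2, CCNE2 and CDC20 were added after their values had been seen. Of the wider lists, those past a threshold and the 2 with the smallest p in each list are named. The genes, lists and tests were chosen with earlier results of these data known.

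Same-numbered arrays deviated together from their group means (correlations of 0.544, 0.228 and 0.368 over the kept probes). Unlike numbers gave 0.158 for mock array 3 with LAP2β array 2 and 0.142 for mock array 2 with LAP2β array 3. The remaining unlike pairs ran from -0.434 to -0.274, so numbers 2 and 3 were matched less clearly than number 1. Deviations from a group mean cancel within the group, so these negative values follow in part from the positive ones. The numbers were taken to pair the samples, although neither paper nor labels say what a number shares. Alternatives were the replicate block, the authors' normalized values and series matrix, neqc (offset 16), normexp (offset 50, background at the percentile 1 of each array), median scaling, no normalization, other detection filters, trend and robust options of eBayes, the methods' t-test, an adjusted p under 0.01, the mean of a gene's probes, and each array left out. Slides and scan dates are not given in the sources used here.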

Additional observations from a re-analysis of the deposited data

How the results depend on the processing

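None of the 53 genes rose under any alternative. The number that fell was 2 with median scaling and 2 with no normalization (CCNE1 and MCM4 in both), 3 with the replicate block and 5 by the methods' t-test at an unadjusted p under 0.05, where the 5 were RBL1, CCNE1, MCM4, RFC4 and MKI67. It was 0 under the other alternatives, each array left out included. As background for these counts, 220 of the 13323 kept probes were past the threshold in either direction. This number became 145 with neqc, 537 with median scaling, 521 with no normalization and 821 with the replicate block. It became 1616 by the methods' t-test, 1 after its Benjamini-Hochberg adjustment, and 113 at an adjusted p under 0.01. It ranged from 100 to 281 with an array left out, with 100 without mock replicate 2 and 123 without LAP2β replicate 2. The share of calls that were higher was 66.4%, against 21.2% with median scaling, 20.9% with no normalization and 55.1% with the block. These 2 scalings moved the median of all probes to -0.125 and -0.140. The G2/M median became -0.224 and -0.240 and the G1/S median became -0.226 with no normalization, beside medians over all genes of -0.128 and -0.143. Signs turned under median scaling and under no normalization for E2F1 (-0.0089 and -0.024), CCND1 (-0.080 and -0.096), PCNA (-0.149 and -0.164) and KIF20A (-0.059 and -0.074). PCNA also turned with the mean of its probes (-0.211), without mock replicate 1 (-0.153) and without LAP2β replicate 1 (-0.0068), and CDC6 without mock replicate 3 (0.049). With an array left out PCNA ranged from -0.153 to 0.106 and CDC6 from -0.265 to 0.049. The cause was not tested. The range of the adjusted p over the alternatives was taken from the limma fits and the methods' t-test after Benjamini-Hochberg adjustment together. It was 0.0225 to 0.370 for CCNE1, 0.0356 to 0.536 for MCM4, 0.0421 to 0.468 for MKI67 and 0.0536 to 0.520 for RBL1. With 3 arrays a group, differences smaller than the intervals given may have gone undetected, and so may larger ones. The intervals are not adjusted for the number of probes, whereas the calls are. Those of CCNE1, RBL1, MCM4 and MKI67 left out 0, yet none of these genes passed in the limma fit without the block.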
